A study of Homo sapiens with 42 samples.

Results

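Open chromatin sites found in MCF10A cells given no growth factor, and in which few EGF-treated libraries had a peak, were examined in 42 ATAC-seq libraries. In this assay a transposase cuts accessible DNA, and regions with many cuts are called as peaks. The peaks of all libraries on chromosomes 1 to 22 and X were merged into 167085 sites. Sites were chosen by their calls alone: a peak in at least 4 of the 6 PBS libraries and in at most 2 of the 8 EGF libraries. This gave 694 sites, of 31873 sites called in at least 4 PBS libraries. The PBS and EGF calls were used for the selection, so they are given here as a description with no test.

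All cells were MCF10A, a mammary epithelial cell line that does not form tumours and is usually cultured with EGF. All cells were held for 18 h in medium with 5% horse serum, hydrocortisone and cholera toxin but without EGF or insulin, and every treatment was given in that same medium. CTRL cells (4 libraries) were taken at 0 h, at the end of this period. The others received PBS, the vehicle (3 libraries at 24 h and 3 at 48 h), EGF at 10 ng/ml (4 and 4), HGF at 40 ng/ml or OSM at 10 ng/ml (3 and 3 each). IFNG at 20 ng/ml and TGFB at 10 ng/ml were each given together with EGF (3 and 3 each). CTRL libraries carry a PBS treatment label at 0 h. The labels give replicate letters, and the study's methods call its replicates biological.

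EGF binds the EGF receptor and HGF binds MET; both are receptor tyrosine kinases that activate the MAP kinase and PI3 kinase pathways. AP-1 factors and early genes such as EGR1 are known outputs of the first pathway, and FOXO factors are kept out of the nucleus by the second. OSM acts mainly through STAT3 and TGFB through SMAD factors. Sites of open chromatin away from promoters are often enhancers, whose accessibility follows the transcription factors that are active in the cell.

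The sequences of 6 sites are shown because the named results turn on them: the first 4 in the order of PBS calls, EGF calls and peak height, and 2 sites that differed from CTRL in the test described further on. Each is the + strand of hg38 around the centre summit, and capitals mark matches to the motifs searched, on either strand. The first site lay in an intron of MAP3K20 and held none of these motifs. The SLC38A4 site held an ATF4-C/EBP match (TGATGNAA) that overlapped an IRF match (GAAANTGAA), and the GNPDA2 site held a FOX match (TGTTTAC) and an NF-kB match (GGGANTTTC). The SLC15A1 site held AP-1 (TGACTCA) and NF-kB matches, and the TRIM25 site held RUNX (TGTGGT), STAT (TTCCNGGAA) and ATF4-C/EBP matches. The chromosome 7 sequence lies in a tandem repeat and held 1 ZEB/SNAI match (CAGGTG).
MAP3K20 site, chr2:173214279-173214479: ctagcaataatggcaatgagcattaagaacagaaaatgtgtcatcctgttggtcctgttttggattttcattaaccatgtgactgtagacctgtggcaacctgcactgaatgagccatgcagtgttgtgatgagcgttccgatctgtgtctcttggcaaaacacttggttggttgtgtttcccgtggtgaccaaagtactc
SLC38A4 site, chr12:46617265-46617465: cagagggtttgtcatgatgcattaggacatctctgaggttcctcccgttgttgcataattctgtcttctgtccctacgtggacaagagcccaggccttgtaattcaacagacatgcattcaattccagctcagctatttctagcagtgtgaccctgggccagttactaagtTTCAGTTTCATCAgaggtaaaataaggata
Tandem-repeat site on chromosome 7, chr7:58181881-58182081: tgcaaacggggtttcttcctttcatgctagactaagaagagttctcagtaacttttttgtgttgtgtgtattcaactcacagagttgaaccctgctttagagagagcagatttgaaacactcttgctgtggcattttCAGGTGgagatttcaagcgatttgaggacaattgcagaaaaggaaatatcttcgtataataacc
GNPDA2 site, chr4:45120231-45120431: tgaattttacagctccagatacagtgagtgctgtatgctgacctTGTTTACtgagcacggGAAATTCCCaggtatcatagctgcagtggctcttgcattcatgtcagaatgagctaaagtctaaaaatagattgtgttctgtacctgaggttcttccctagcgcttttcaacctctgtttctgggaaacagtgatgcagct
SLC15A1 site, chr13:98761731-98761931: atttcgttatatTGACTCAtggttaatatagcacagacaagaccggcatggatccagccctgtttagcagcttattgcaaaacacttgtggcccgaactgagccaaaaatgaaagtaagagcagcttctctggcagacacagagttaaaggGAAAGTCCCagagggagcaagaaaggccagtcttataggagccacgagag
TRIM25 site, chr17:56919048-56919248: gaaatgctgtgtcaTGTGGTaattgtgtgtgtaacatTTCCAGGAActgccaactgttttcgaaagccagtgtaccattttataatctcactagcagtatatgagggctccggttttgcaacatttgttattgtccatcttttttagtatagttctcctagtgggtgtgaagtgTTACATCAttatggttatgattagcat

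Libraries listed 3653 to 95003 regions. The deposited files hold no read counts, so sequencing depth was unknown. Of the 42 libraries, 8 had fewer than 30000 regions, and 21 had at least 60000. The study set aside some ATAC-seq libraries for a low share of reads in peaks. The labels do not mark them, so the libraries with few regions may be among them, and all were kept here. The 21 were 4 CTRL, 1 PBS, 6 EGF, 4 HGF and 2 OSM libraries, and with EGF 3 of IFNG and 1 of TGFB. Promoter peaks were seen at KRT8 and KRT18 in 36 libraries and at KRT5 in 31. The basal marker KRT14 had one in 10, and TP63 in 0. Of 5 blood cell markers, 4 had a promoter peak in no library and HBB in 2, and of 5 fibroblast and endothelial markers DCN had one in 9 and the others in 0.

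The 694 sites were of 2 kinds by their sequence, a split made after the data had been seen. In 209 of them the DNA around the summit was a tandem repeat, with at least 0.4 of its bases identical to those a fixed distance away, and 485 lay outside such repeats. Only 9 sites had an identity of 0.35 to 0.4 and 10 of 0.4 to 0.45, while 188 had at least 0.5. The distance was 340 bp in 85 of the 209 sites and 171 bp in 11. Alpha satellite, the repeat of human centromeres, is built of units of the second length, often arranged in larger units. Tandem repeats made up 2.9% of all sites called in at least 4 PBS libraries and 2.7% of all sites in at least 2 libraries, against 30.1% of the 694.

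Detection of the 2 kinds went opposite ways with the size of a library, and its cause was not tested. In the 4 libraries with fewer than 7000 sites, 198 of the 209 repeat sites had a peak in at least one, against 14 of the 485 others. Over the 28 libraries that the selection did not use, Spearman's rho between the number of sites detected and the percent detected was −0.84 for repeat sites and 0.88 for the others. For all sites in at least 4 PBS libraries it was 0.91. These libraries share treatments and batches, so the values are a description. Each library of PBS at 48 h and all but one at 24 h had fewer than 60000 regions, while EGF libraries mostly had more. For the 209 repeat sites a low rate in EGF therefore cannot be told apart from the size of the libraries, and the name "closed by EGF" goes against their calls elsewhere. Libraries of TGFB with EGF had a peak at 37.3% to 77% of them. The results below keep the kinds apart.

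**Figure D1:**
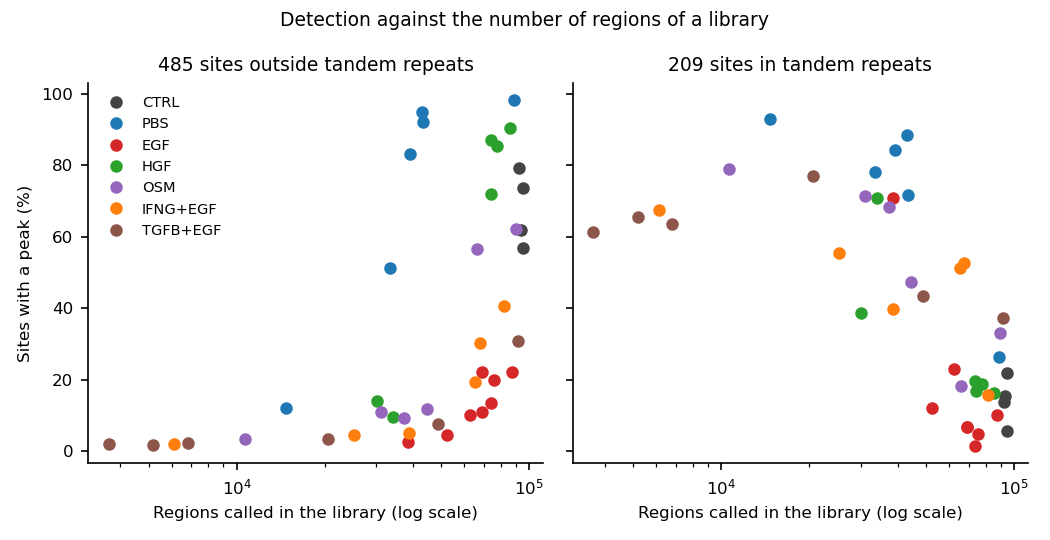
Percent of sites with a peak in each of the 42 libraries (y axis) against the number of regions called in the library (x axis, log scale), by treatment, for the 485 sites outside tandem repeats (left) and the 209 in them (right). Repeat sites are detected most in libraries with few regions, and among libraries of at least 60000 regions the CTRL and HGF libraries lie above all libraries given EGF in the left panel.

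Outside tandem repeats, each CTRL library at 0 h and each HGF library of at least 60000 regions had a peak at most of the sites. CTRL libraries had a peak at 79.2%, 73.6%, 61.9% and 56.9% of the 485 sites. HGF libraries A and B had a peak at 90.3% and 72% at 24 h and at 87% and 85.4% at 48 h. HGF libraries C, which had only 34113 and 30113 regions, gave 9.48% and 14%. The HGF libraries of at least 60000 regions thus lay at or above the middle of the CTRL range, and those of replicate C lay far under every CTRL library. The 2 larger OSM libraries gave 62.1% and 56.5%, under the larger HGF libraries but near the lower CTRL values of 61.9% and 56.9%. The other 4 OSM libraries, of 10637 to 44539 regions, gave 3.51% to 11.8%. The part of library size in these low values was not tested.

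With EGF in the medium, fewer of these sites had a peak, also in libraries that played no part in the choice. The 3 larger libraries of IFNG with EGF gave 19.4%, 30.3% and 40.6%, and the single larger library of TGFB with EGF gave 30.7%. The other 8 libraries of these treatments gave 1.65% to 7.63%. The larger libraries of EGF alone, which chose the sites, gave 10.1% to 22.3%. Among libraries of at least 60000 regions, no library given EGF with IFNG or TGFB reached the lowest CTRL, HGF or OSM library. In the 14 libraries of this size that the selection did not use, 89.9% to 98.4% of all sites called in at least 4 PBS libraries had a peak. Among libraries of 30000 to 60000 regions all values outside PBS were low and the gap was small: HGF gave 9.48% and 14%, OSM 9.28% to 11.8%, IFNG with EGF 5.155% and TGFB with EGF 7.63%. EGF alone gave 4.54% and 2.68% there.

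**Figure D2:**
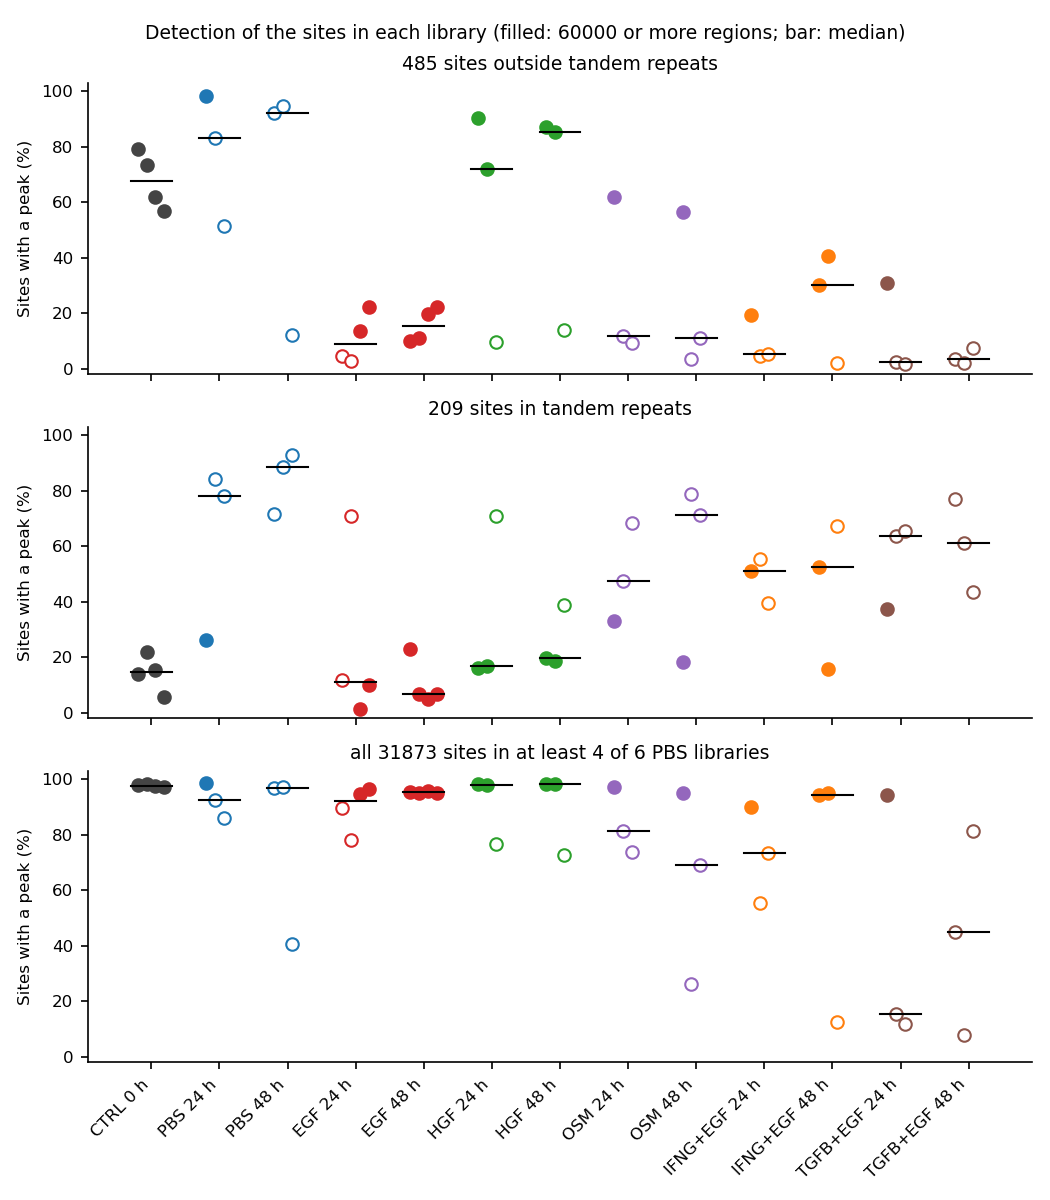
Percent of sites with a peak in each library (points; filled where the library has at least 60000 regions) and the group median (bar), by treatment and time, for the 485 sites outside tandem repeats, the 209 in them, and all 31873 sites in at least 4 of 6 PBS libraries. In the top panel filled HGF points lie at 72% to 90.3% and filled points of IFNG or TGFB with EGF at 19.4% to 40.6%.

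Site by site, 298 of the 485 (61.4%) had a peak in all 4 of the larger HGF libraries and 13 in none of them. In both larger OSM libraries 224 sites (46.2%) had a peak, and in neither 134. In none of the 4 larger libraries of IFNG or TGFB with EGF did 179 sites (36.9%) have a peak, and 23 had one in all 4. Of all sites in at least 4 PBS libraries, 1.2% were in none of these 4 libraries and 85.5% in all. A peak in all HGF libraries, in both of OSM and in none with EGF was seen at 47 sites, and the same with neither OSM library at 39.

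Sites outside repeats differed in their state at 0 h. A peak was called in all 4 CTRL libraries at 186 sites, in 3 at 123, in 2 at 73, in 1 at 58 and in none at 45. Of all sites in at least 4 PBS libraries, 95.9% were called in all 4. From no CTRL library to all 4, the mean share detected in the larger HGF libraries was 60.6%, 72%, 79.45%, 86.2% and 92.9%. In the larger OSM libraries it was 35.6%, 46.55%, 43.84%, 62.6% and 72.85%. With IFNG and EGF it was 22.2%, 19.5%, 27.85%, 27.4% and 38%. The single larger library of TGFB with EGF gave 8.89%, 5.17%, 20.55%, 29.3% and 48.9%. Sites in all 4 CTRL libraries were highest in each, while the order of the lower classes differed, with no test.

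**Figure D3:**
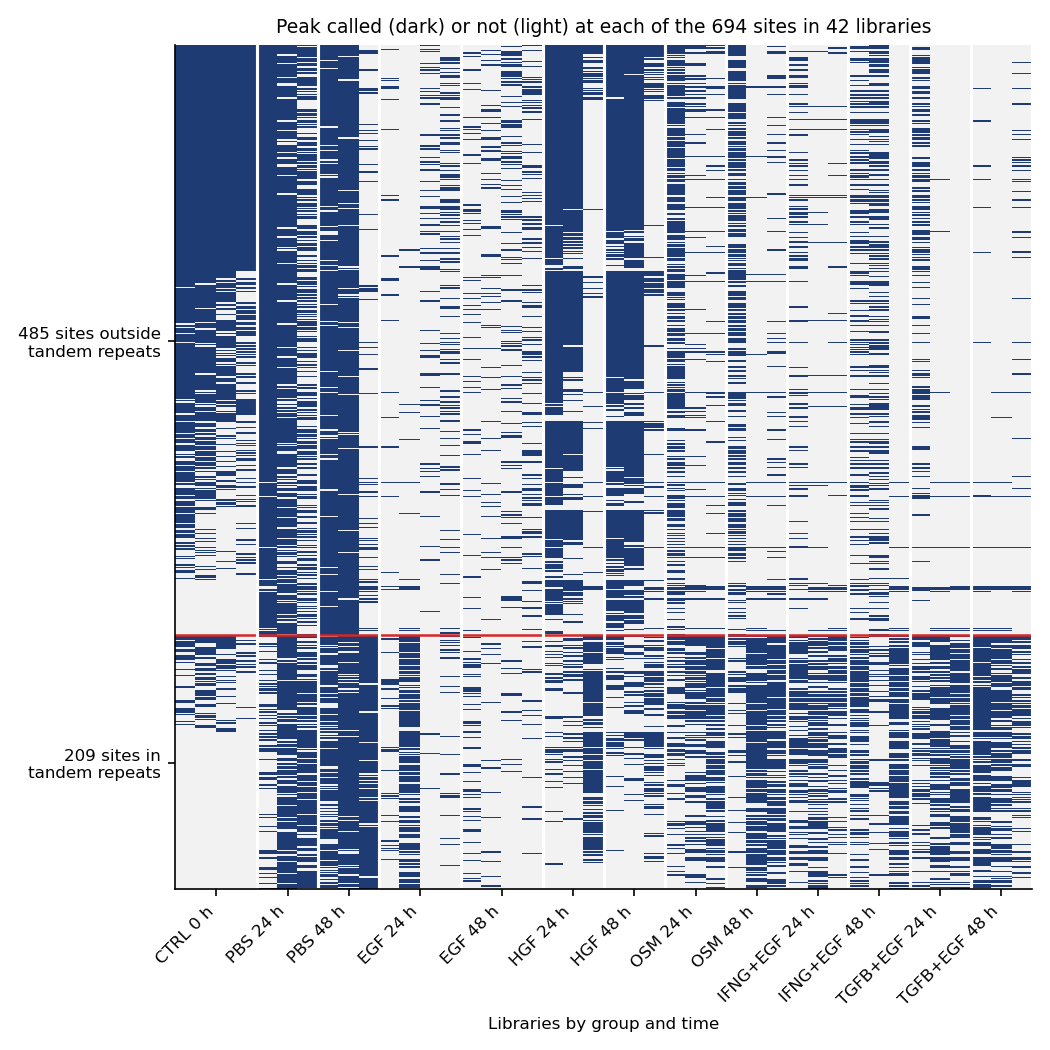
Peak calls (dark, a peak; light, none) at each of the 694 sites (rows) in the 42 libraries (columns, by group and time). Rows are split by a red line into 485 sites outside tandem repeats and 209 in them and sorted by the number of CTRL and then HGF libraries. The PBS and EGF columns chose the sites, and the other columns did not. For sites outside repeats, HGF columns A and B are dense and most columns of IFNG and TGFB with EGF are sparse. For sites in repeats, HGF columns A and B are sparser than most columns of IFNG and TGFB with EGF.

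The calls were also tested site by site in the 28 libraries that the selection did not use, with limma over 121644 sites. The measure was adjusted detection: 1 or 0, less the share that the library detects among sites found in as many libraries. A difference is positive where the first group has more peaks than its libraries' usual rates give, and it can exceed 1. Calls needed a difference of 0.5 or more and an adjusted p (Benjamini-Hochberg, all sites) under 0.01. Of the 694 sites, 689 had a peak in at least 2 of the 28 libraries, 481 of them outside repeats. This filter keeps sites that are high in at least 1 of these groups.

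IFNG with EGF and TGFB with EGF were first compared with HGF and OSM. Neither direction held a called site among the 689, where 0.028% of all sites were called higher and 0% lower. This test could not call such losses: in simulated data with these libraries' own detection rates, 0 of 200 sites that were lost completely were called, against 200 of 200 complete gains. The absence of calls therefore says nothing about losses. At an unadjusted p under 0.05, 188 of the 481 sites outside repeats (39.1%) were lower with EGF and 6 were higher. Over all sites tested these shares were 5.78% lower and 7.13% higher. The median difference was −0.19 for the 481 sites and −0.01 for all. No interaction of this difference with time was called in either direction, in the 689 or in all sites (0% and 0%). At an unadjusted p under 0.05, this difference was higher at 48 h at 2 of the 481 sites (0.416%) and lower at 16 (3.33%). The shares of all sites were 2.72% and 2.08%. What the test of the interaction could recover was not simulated.

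Against CTRL, called sites were all higher in this fit, and most were higher with HGF. The direction depended on the adjustment for library detection. With raw detection the calls were mostly lower, at 68 of 69 sites with IFNG and EGF, 77 of 82 with TGFB and EGF and 31 of 33 with OSM. These were 9.87%, 11.2% and 4.5% of the 689. Over all sites the calls were mostly lower too: 6.19%, 6.69% and 4.54% were called lower, and 0.263%, 0.0296% and 0.0411% higher. For HGF, raw detection called 4 of the 689 sites, 2 higher and 2 lower, against 0.00986% and 1.85% of all sites. Only 3 libraries of IFNG with EGF and 1 of TGFB with EGF had at least 60000 regions. Counts from a fit on libraries of that size are therefore not set beside these. In the adjusted fit 0.0839% of all sites were called higher with HGF and 0.38% lower. There 10 of the 689 sites rose with HGF, all outside repeats, or 2.08% of the 481. Among these sites, those near ABHD6, SLC16A9 and SEMA6D had peaks in HGF alone among the 28 libraries. They passed the filter through HGF and had to differ, so the count and its share are only a description. With IFNG and EGF 5 rose (0.953% of all sites higher, 0.349% lower), and with OSM 3 (0.0806% and 0.217%). With TGFB and EGF 3 rose, 2 of them in repeats (0.0115% and 0.112%). Between HGF and OSM 1 site was called, the ABHD6 site, higher with HGF (0.000822% higher and 0.00904% lower). The HGF count was 2 without HGF replicate A at 48 h and 25 without CTRL replicate A, and the TGFB count was 0 without the libraries under 30000 regions. Losses against CTRL could scarcely be called either, since the simulation recovered 2 of 200 with IFNG and EGF, 0 with TGFB and EGF, 11 with HGF and 1 with OSM. With HGF, 133 of the 481 sites (27.7%) were higher than CTRL and 4 lower at an unadjusted p under 0.05, against 3.87% and 6.44% of all sites. With OSM 69 were higher and 26 lower (all sites 4.66% and 5.95%), with IFNG and EGF 48 higher and 68 lower (7.4% and 7.97%), and with TGFB and EGF 27 higher and 14 lower (3.76% and 4.55%). HGF exceeded OSM at 127 of the 481 sites and was lower at 14 at this unadjusted level (6.81% and 6.35%). In repeats the same level was reached upward against CTRL by 119 of 208 sites with IFNG, 170 with TGFB and 136 with OSM, but 17 with HGF, beside the relation to library size given above.

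The ABHD6 site, chr3:58254063-58254425, had the lowest adjusted p for HGF against CTRL. It lay in an intron of ABHD6, a monoacylglycerol hydrolase, 16.5 kb from the start. No library of CTRL or OSM, and none given EGF, had a peak there, and HGF libraries had fold enrichments at the summit of 5.48, 5.83, 6.48, 7.55 and 6.04 in 5 of 6. The sixth, replicate C at 24 h, had none. The adjusted difference from CTRL was 1.15 ± 0.12 (SE) and that from OSM 0.77 ± 0.11. This site, like the SLC16A9 and SEMA6D sites, entered the test through its HGF peaks alone, so it had to differ and no p is given as support.

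The SARAF, SLC16A9, SEMA6D and SLC15A1 sites had the next lowest adjusted p for HGF against CTRL, and no CTRL library had a peak at any of them. The SARAF site (chr8:30057326-30057757, 25.6 kb from the start of a regulator of store-operated calcium entry) had a peak in 4 HGF, 3 OSM and 2 IFNG with EGF libraries. It rose with all 3 treatments, by 1.09 (HGF), 1.12 (OSM) and 0.96 (IFNG with EGF) in adjusted detection, and had no peak in EGF. The SLC16A9 site (chr10:59608539-59609189, 100.9 kb from the start) and the SEMA6D site (chr15:47900429-47901463, 182.5 kb) each had a peak in 4 HGF libraries and in no OSM library or library given IFNG or TGFB. SEMA6D encodes a semaphorin, a guidance signal. The adjusted difference from CTRL was 0.92 ± 0.15 (SE) at both.

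HGF, OSM and IFNG with EGF libraries had peaks at SLC15A1 and TRIM25, whose sequences are printed above. The SLC15A1 site, chr13:98761564-98762107, lay 9.2 kb upstream of a gene for a peptide transporter. Fold enrichment there was 13.36, 5.255, 13.68 and 13.4 in 4 IFNG with EGF libraries, 6.221 to 8.115 in 4 HGF libraries, 8.91 and 7.644 in 2 OSM libraries and 3.902 and 6.205 in 2 EGF libraries, and no peak was called in CTRL or with TGFB. The difference of IFNG with EGF from CTRL was 1.31 ± 0.18 (limma adjusted p = 0.000116). TRIM25 encodes an E3 ubiquitin ligase of antiviral signalling, and the site at chr17:56919021-56919312 lay 5.1 kb upstream. It had a peak in 4 IFNG with EGF libraries at 3.27 to 7.53, in 4 HGF libraries at 2.66 to 5.42 and in 3 OSM libraries at 3.02 to 3.83, and in no EGF, CTRL or TGFB library. The difference of IFNG with EGF from CTRL was 1.32 ± 0.19 (limma adjusted p = 0.000198), and that of OSM was 1.144 ± 0.19 (limma adjusted p = 0.00331). At both sites IFNG libraries had peaks although they also held EGF.

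Further sites called with IFNG and EGF were the YWHAZ site (chr8:101073463-101073939, difference 1.085) and the SLC19A1 site (chr21:45500579-45501003, difference 1.205). The SLC19A1 site had a peak in all 6 libraries each of PBS and OSM and of IFNG and TGFB with EGF, in 4 of HGF, and in 2 of EGF and 0 of CTRL. It lay in an intron of SLC19A1, a folate carrier gene, which overlaps COL18A1. It was also called with TGFB and EGF, at 1.575 ± 0.25 (limma adjusted p = 0.00174). Its repeat identity was 0.356, under the limit of 0.4. Its EGF peaks were in replicates A and B at 24 h, the EGF libraries with the fewest regions (52410 and 38621). The CTRL libraries had 92536 to 95003 regions, but libraries of 91433 (TGFB with EGF) and 89876 (OSM) regions also had a peak. The part of library size in these calls was not tested. With OSM, the CD99L2 site (chrX:150850220-150850793) was called at a difference of 1.21, with peaks in 5 OSM and 1 CTRL library, a call that held under 12 of 38 alternatives. The 2 repeat sites called with TGFB and EGF were chr1:124562017-124562282 (1.66) and chr14:18117720-18118144 (1.52).

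The 12 sites first in the order of calls and height are shown by library in the plot of fold enrichment at named sites. Of them, 3 had a peak in all 6 PBS and no EGF library, and 9 in all 6 PBS and 1 EGF library. Of the 12, 11 lay outside repeats. The first, chr2:173214082-173214489, lay in an intron of MAP3K20, a stress-activated MAP kinase kinase kinase. Fold enrichment was 6.86 to 12.2 in PBS (median 9.57), 7.385, 10.19 and 9.195 in 3 CTRL libraries, and 4.33 to 12.7 in 5 HGF libraries. OSM had a peak in 2 libraries at 10.5 and 8.365, and no library given EGF had one.

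The second site, chr12:46617209-46617552, lay 208.6 kb from the start of SLC38A4, an amino acid transporter. It had 4.03 to 11.2 in PBS, 3.74 in 1 CTRL library, 6.05 to 7.52 in 3 HGF libraries, and 6.23 and 7.43 in 2 libraries of IFNG with EGF. At the GNPDA2 site, chr4:45120242-45120513, PBS gave 4.91 to 14.3, 3 CTRL libraries 9.34, 4.92 and 10.3, and 1 EGF library 6.9. Peaks were also called there in 3 HGF and 3 OSM libraries, and with EGF in 2 of IFNG and 1 of TGFB. These 3 sites thus differed in their calls outside PBS and EGF.

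The other sites had genes of varied function as the nearest. The site nearest to AREG, which encodes an EGF receptor ligand, was 153.8 kb from its start (chr4:74598776-74599487). It had a peak in 3 CTRL, 4 HGF, 4 OSM and 2 IFNG with EGF libraries. The site nearest to FOXO1, the gene of a factor restrained by PI3 kinase signalling, was 316 kb away (chr13:40350251-40350854). The FOXO1 site had a peak in 4 of 4 CTRL libraries at 3.36 to 6.75 and in 4 HGF libraries at 5.82 to 8.13. No OSM library and none with IFNG or TGFB had one. The CYP24A1 site (chr20:54148949-54149480), 22.8 kb from the start of a vitamin D hydroxylase gene, had 1 CTRL peak at 7.47, 4 HGF peaks at 4.14 to 9.34 and none with OSM, IFNG or TGFB.

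Calls were similar at the sites nearest to ETAA1 (440 kb), SLC22A23 (50 kb), CTNNB1 (34.7 kb), ZKSCAN2 (21.8 kb) and COA6 (29.9 kb). They had peaks in 3 or 4 CTRL and in 4 or 5 HGF libraries, in 0 to 2 OSM libraries and in none with IFNG. The CTNNB1 site (chr3:41159775-41160253), upstream of the beta-catenin gene, also had 2 peaks with TGFB and EGF, at 4.567 and 3.662. The one repeat site of the 12, chr7:58181866-58182322, went the other way: 0 CTRL and 1 HGF library had a peak, while 4 OSM libraries did and, with EGF, 3 of IFNG and 6 of TGFB.

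**Figure D4:**
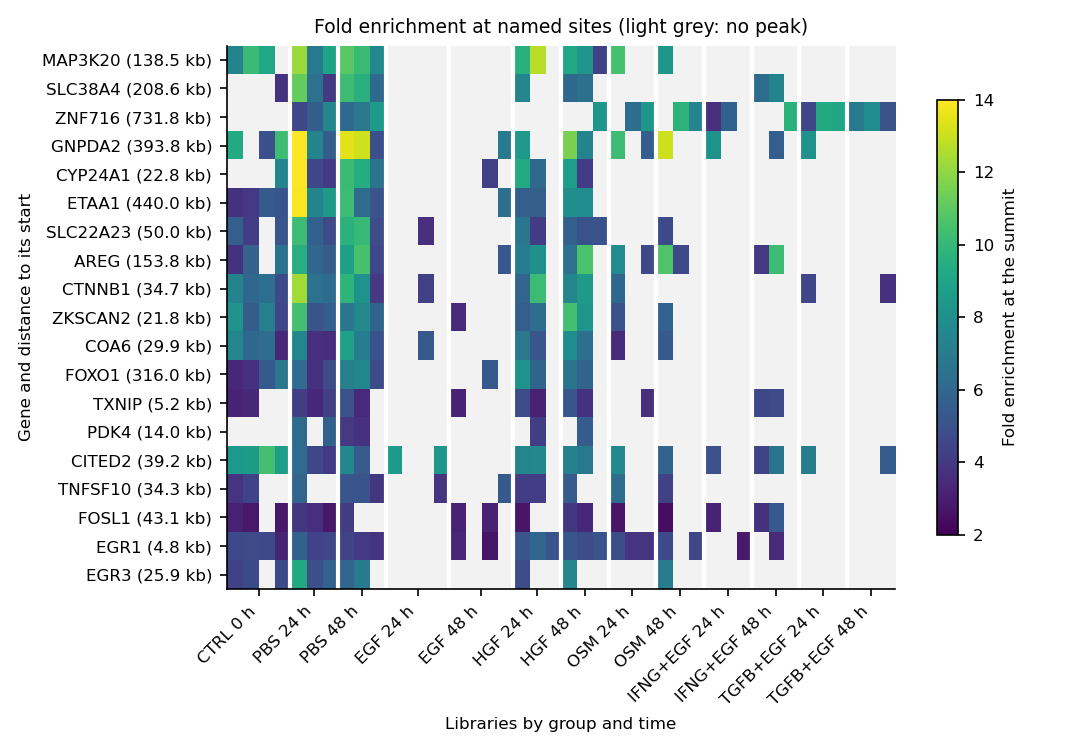
Fold enrichment at the summit (colour) in each of the 42 libraries (columns) at the 12 first sites and the 7 further sites near genes of the fixed lists (rows, with the gene and the distance to its start in kb). Light grey means no peak. HGF columns A and B carry colour in most rows, and the ZNF716 row, the tandem-repeat site, is coloured with OSM and TGFB instead.

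Genes near the sites were counted from lists of known growth and differentiation genes. A site within 50 kb of a start was found for 447 of 19609 protein-coding genes (2.28%), all of these sites outside repeats. Among FOXO-linked and quiescence genes the count was 4 of 20 (20%), and among growth factor response and feedback genes 3 of 26 (11.5%). Among Wnt and YAP genes it was 1 of 10, CTNNB1. None of 16 EGF receptor family genes, ligands and regulators had one, nor any of 12 p53, 14 cell cycle or 17 epithelial differentiation genes. All 20 FOXO-linked and all 26 growth factor genes, but 16382 of all 19609 genes, had some site of at least 4 PBS libraries within that distance. These counts are a description.

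Of the FOXO-linked genes, TXNIP, which restrains glucose uptake, had a site 5.2 kb from its start (chr1:145990232-145991377). Its fold enrichment was 3.368 to 4.955 in 5 PBS libraries, 3.187 and 3.315 in 2 CTRL libraries, 3.1 to 5.23 in 4 HGF libraries, 3.6 in 1 OSM library, 4.59 and 4.73 in 2 IFNG with EGF libraries and 3.2 in 1 EGF library. PDK4, which limits pyruvate entry into the citric acid cycle, had a site 14 kb from its start (chr7:95582265-95582871). It was called in 4 PBS libraries at 3.73 to 6.2 and in 2 HGF libraries, and in no CTRL, EGF, OSM, IFNG or TGFB library. The CITED2 site (chr6:139334869-139335631, 39.2 kb), near the gene of a CBP and p300 binding protein, had higher peaks at 0 h: 8.407 to 10.45 in 4 CTRL libraries and 8.3 and 8.501 in 2 EGF libraries, against 4.029 to 7.624 in 5 PBS libraries. The TNFSF10 site (chr3:172557453-172558172, 34.3 kb), near the gene of the death ligand TRAIL, had peaks in 4 PBS, 2 CTRL, 2 EGF, 3 HGF and 2 OSM libraries.

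Of the growth factor response genes, EGR1, an immediate early transcription factor gene, had the broadest site. It spanned 1937 bp, 4.8 kb downstream of the start (chr5:138469360-138471296). Fold enrichment was 4.686, 4.765, 4.699 and 3.24 in CTRL, 3.82 to 5.73 in 6 PBS libraries, 4.84 to 5.9 in all 6 HGF libraries and 3.784 to 4.865 in 5 OSM libraries. With EGF alone 2 of 8 libraries had a peak, at 3.312 and 2.695, with IFNG and EGF 2 of 6, at 2.89 and 3.47, and with TGFB and EGF none of 6. Both HGF libraries of replicate C had this peak. The EGR3 site (chr8:22719043-22719618, 25.9 kb, in an intron of PEBP4) had peaks in 5 PBS, 3 CTRL, 2 HGF and 1 OSM library and in none with EGF. The FOSL1 site (chr11:65857024-65857439) lay 43.1 kb from FOSL1 but 0.2 kb from the start of CFL1, a gene of actin turnover.

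Most sites outside repeats lay far from promoters under the rule used here. Only 23 of 485 (4.74%) were within 1000 bp of a transcription start, against 31.2% of sites in at least 4 PBS libraries and 11.35% of sites in at least 2 libraries. Over all 694 sites the share was 3.314%, but 40.64% where the 15000 strongest peaks of each PBS and EGF library chose the sites, and 0.9434% without PBS replicate A at 24 h. Introns held 223, intergenic DNA 248, UTRs 13 and coding exons 1. The median distance to a start was 52.3 kb, against 17.2 kb and 35.8 kb. Median GC within 100 bp was 45.3%, against 52.7% and 47.3%, and the median width was 509 bp, against 824 and 522 bp. They were spread over all 23 chromosomes, with 1 run of 3 sites no more than 100 kb apart. The 209 repeat sites were all intergenic. In all, 128 of them lay in 21 runs, the longest of 24 sites over 637.6 kb of chromosome 1 (123924547 to 124562138), and 53 were on chromosome 1, 40 on chromosome 5 and 28 on chromosome 19.

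The 23 promoter-proximal sites, named after their values were seen, included ATOH8, a helix-loop-helix factor gene (2 CTRL, 2 HGF and no OSM, IFNG or TGFB library). AQP10, a water channel gene, had a peak in 4 CTRL and 4 HGF libraries and in none with OSM, IFNG or TGFB. CYP3A43, a cytochrome P450 gene, had one in 4 CTRL, 5 HGF and 1 OSM library. DDR1, a collagen receptor tyrosine kinase gene, had one in 3 CTRL, 3 HGF, 2 OSM and 1 TGFB with EGF library.

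Peaks at these sites were low. In PBS libraries with a peak, the median fold enrichment at sites outside repeats was 6.12, against 8.02 over all sites in at least 4 PBS libraries. In CTRL it was 6.23 against 10.9, in HGF 6.51 against 9.08, and in IFNG with EGF 5.57 against 7.75. The part of peak height in the calls was not tested. Repeat sites had a median of 5.54 in PBS, 4.67 in CTRL and 5.83 with TGFB and EGF.

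Motifs were counted within 100 bp of the centre summit on both strands, in sites over 1000 bp from a start. AP-1 (TGACTCA) was found in 18.4% of the 462 distal sites outside repeats, against 36.5% of distal sites in at least 4 PBS libraries and 32.3% in at least 2 libraries. ZEB/SNAI (CAGGTG) was found in 9.96% against 15.3% and 16.7%, TEAD (GGAATG) in 12.8% against 16.1% and 17%, and SP/KLF (GGGCGG) in 3.03% against 10.3% and 6.32%. The glucocorticoid receptor motif (GR, ACANNNTGT) was in 14.9% against 9.67% and 8.44%. ATF4-C/EBP (TGATGNAA) was in 13.4% against 6.72% and 5.91%, and RUNX (TGTGGT) in 19.9% against 16.3% and 17.6%. FOX (TGTTTAC) was in 5.63% against 4.39% and 4.03%.

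The AP-1 share thus lay under, and the GR and ATF4-C/EBP shares over, both backgrounds. Within 50 bp they were 11.3%, 7.14% and 9.09%, against 25.4%, 4.65% and 3.845% of distal sites in at least 4 PBS libraries. The base composition of the sets differed, as given above, and its part was not tested. All groups had hydrocortisone, a glucocorticoid, in the medium. From the 45 sites called in no CTRL library to the 186 called in all 4, AP-1 was in 8.89%, 5.17%, 20.55%, 13% and 25.3%. ATF4-C/EBP was in 17.8%, 20.7%, 15.1%, 9.76% and 10.2%. Neither motif changed steadily over these classes, and no test was made. Among the repeat sites the CENP-B box, bound by a centromere protein, was found in 42.1%, against 1.46% and 1.1% of the backgrounds, and AP-1 in 0 of 209. GR letters were in 38.8% of repeat sites, which share their repeat unit.

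**Figure D5:**
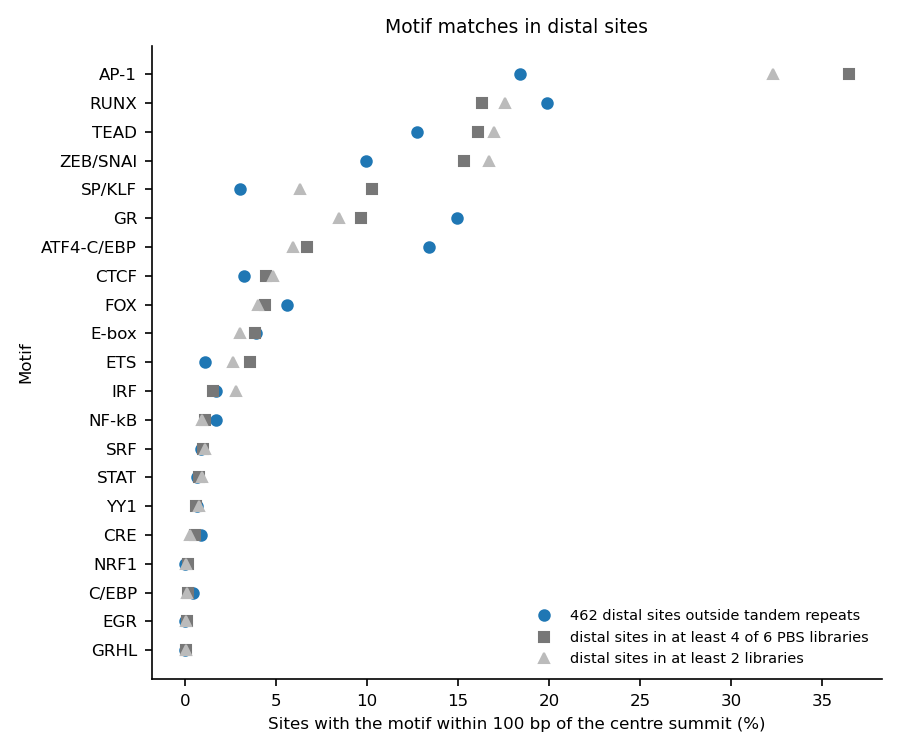
Percent of distal sites with each motif within 100 bp of the centre summit, for the 462 distal sites outside tandem repeats (circles), distal sites in at least 4 of 6 PBS libraries (squares) and distal sites in at least 2 libraries (triangles). AP-1 is at 18.4% against 36.5% and 32.3%, and GR and ATF4-C/EBP lie to the right of both backgrounds.

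Most sites lay close to the limits of the selection. Of the 694 sites, 483 had exactly 4 PBS peaks and 180 of these had 2 EGF peaks, while 3 had 6 PBS and no EGF peak. The first site just inside both limits in genome order, chr1:96446-97000, had fold enrichments of 4.01 to 11.4 in 4 PBS libraries and 4.07 and 5.84 in 2 EGF libraries. The first just outside with 3 PBS peaks, chr1:923752-924426 at the start of SAMD11, had 3.31 to 4.02 in PBS and 3.264 and 3.899 in EGF. The first with 3 EGF peaks, chr1:632527-632907, had 1.706 to 2.08 in 5 PBS libraries and 1.72 to 1.94 in EGF.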

How the data were processed

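Cells were sequenced as paired reads of Omni-ATAC libraries. The authors trimmed reads with Trimmomatic 0.36.5, aligned them to hg38 with Bowtie2 2.3.4.1, removed secondary, unmapped and mitochondrial alignments and, with Picard, duplicates, and called peaks per library with MACS2 2.1.1.20160309.5 at a q of 0.01. No mapping quality filter is stated in the sources used here, so reads that match several copies of a repeat could stay in. Among the deposited columns, the ratio is fold enrichment over the library's own local background. The files hold positions and, as the authors' peak caller wrote them, −log10 values of the p-value and the q-value. The deposited score is the scaled −log10 of q. A region with several summits has several rows in the files, so regions were counted once. BMP2 libraries were not analysed here. Results for a few genes are not reported here.

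Overlapping peaks (1 bp or more) were merged, and a site was detected in a library that had a peak in it. The centre summit was annotated with GENCODE release 44. Tandem repeats were found by the highest identity of the 2000 bp on each side of the summit with itself at a lag of 100 to 2000 bp (limit 0.4). The reference is not soft-masked, so no masked share is given. The site fit used limma 3.58.1 in R 4.3.3, with 28 libraries in 9 groups and 7 contrasts. Sites with no spread within groups had their variance set above 0 by limma. It was tested on simulated data: without any change it made 121 false calls, 5 of them higher, among 113806 sites for HGF against CTRL.

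Named sites were: the 12 first by PBS count, EGF count and median PBS fold enrichment; the site nearest to each list gene within 50 kb; the 5 lowest adjusted p per contrast and direction; genes with 3 or more sites within 50 kb, of which there were 0; and the sites next to the limits. The sites, the lists and the tests were chosen with earlier results of these data known. Alternatives changed the peak threshold, the detection rule, the windows, the normalization and the libraries.

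Summaries were made with Python 3.11.15, numpy 2.4.6, pandas 2.3.3, scipy 1.17.1 and matplotlib 3.10.9.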

Additional observations from a re-analysis of the deposited data

Results flagged for a closer look

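In 2 of the 9 sets of EGF or CTRL values examined, 1 library lay far from the other 3. Both concerned EGF libraries at the tandem-repeat sites. The EGF calls helped to choose the sites, so no chance rate is given and the values are a description. At 24 h, EGF replicate B had a peak at 70.8% of the 209 sites, against 1.44% to 12% in the other EGF libraries at that time. This library had 38621 regions, the fewest of the EGF libraries. At 48 h, EGF replicate A had a peak at 23% of them, against 4.79% to 6.7%, and its 62476 regions were the fewest of the EGF libraries at 48 h. Outside repeats the same libraries gave 2.68% and 10.1% of the sites, the lowest of the EGF libraries at each time. The part of library size in these values was not tested.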

How the results depend on the processing

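The number of sites was 694, and 1762 with the 15000 strongest peaks of each PBS and EGF library and 116 with at least 5 PBS and at most 1 EGF library. Leaving out 1 library gave 255 (without PBS replicate B at 48 h) to 912 (without EGF replicate A at 48 h). Without PBS replicates A or B at 24 h or A at 48 h it gave 318, 320 and 302.

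The mean percent of all 694 sites detected was 51.73% in CTRL, 50.79% with HGF and 33.86% with OSM, and with EGF present 26.06% (IFNG) and 23.05% (TGFB). With the 15000 strongest peaks these were 97.52%, 94.17%, 75.1%, 70.09% and 39.98%. Outside tandem repeats CTRL gave 67.89%, IFNG with EGF 17.01% and TGFB with EGF 7.973%. In repeats CTRL gave 14.23% and OSM 52.87%, and IFNG or TGFB with EGF 47.05% and 58.05%. With libraries of at least 60000 regions OSM gave 49.14% and TGFB with EGF 32.71%. Leaving out 1 library gave 37.89% to 60% in CTRL, 45.65% to 56.66% with HGF, 29.97% to 45.13% with OSM, 23.04% to 34.59% with IFNG and 16.96% to 38.21% with TGFB (32.28%, 30.13% and 30.43% without PBS replicates A or B at 48 h or EGF replicate B at 24 h). The promoter-proximal share of 3.314% became 7.397% with summits within 150 bp, 40.64% with the strongest peaks and 0.8621% with the stricter limits, and 0.9434% to 3.929% without 1 library (2.096% without PBS replicate C at 24 h and 1.656% without A at 48 h).

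Counts of called sites moved under several alternatives. The fit on libraries of at least 60000 regions made 899 false calls among 111404 unchanged simulated sites. This was simulated for IFNG and TGFB with EGF against HGF and OSM alone. The fit held 2 OSM libraries, 3 of IFNG with EGF and 1 of TGFB with EGF, so its counts are no support. For IFNG and TGFB with EGF against HGF and OSM, 0 calls became 6 (raw detection), 4 (log2 fold enrichment), 2 (array weights), 16 (without libraries under 30000 regions, all lower, 2.35% of sites against 0.227% of all sites) and 41 (at least 60000 regions, 36 of them lower, 5.71% against 1.38%). For IFNG with EGF against CTRL, 5 became 69 (raw), 18 (log2 fold enrichment), 3 (lane as a term), 10 (all 42 libraries) and 83 (at least 60000). With raw detection 68 of the 69 were lower (9.87% against 6.19% of all sites), and with at least 60000 regions 59 of the 83 (9.35% against 2.84%), so the direction turned. For TGFB with EGF, 3 became 82 (raw), 5 (all 42), 33 (array weights), 70 (at least 60000), and 0 with lane, with sites in at least 5 of the 28 libraries and without libraries under 30000 regions. Here 77 of the 82 were lower (11.2% against 6.69%) and 59 of the 70 (9.35% against 2.67%). For HGF, 10 became 4 (raw, 2 lower), 16 (log2 fold enrichment), 3 (without libraries under 30000 regions) and 16 (at least 60000, 1 lower). With raw detection 0.00986% of all sites were called higher and 1.85% lower. With at least 60000 regions these shares were 0.315% and 1.1%. For OSM, 3 became 33 (raw), 5 (log2 fold enrichment), 1 (lane), 7 (all 42) and 39 (at least 60000). Of the 33, 31 were lower (4.5% against 4.54%), and of the 39, 17 (2.69% against 1.21%). For HGF against OSM, 1 became 6 (raw), 26 (at least 60000), and 0 with all 42 and without libraries under 30000 regions. Leaving out 1 library gave, in this order of comparisons, 0 to 4, 4 to 7, 1 to 7, 2 to 25, 1 to 5 and 0 to 8 calls, and 0 to 2 for the change with time. The second-highest HGF count, 23, came without HGF replicate C at 48 h. The cause of these moves was not tested.

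With the replicate block, HGF against OSM gave 0 calls and HGF against CTRL 10. The labels do not say whether libraries of the same letter were grown together. In different groups, libraries of the same letter had correlated deviations over 0.1 in 4 of 108 pairs, and those of different letters in 3 of 240. The 22 named differences kept their direction under all 38 alternatives that could be fitted for them, and 203 of these values were no longer called. They were picked by their calls in the same data, and at most of them the comparison group had no peak. The sign could therefore hardly turn, and its constancy is no support. Read depth was unknown.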
